A study of Mus musculus with 4 samples.

Results

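LYVE1-positive macrophages that also carried RNA for FOLR2 or CD163 were described among macrophages of mouse perigonadal white fat. A cell was counted as a member if it held at least 1 UMI (unique molecular identifier, 1 counted RNA molecule) of Lyve1 and at least 1 UMI of Folr2 or Cd163, and no UMI of Timd4, Arg1, Mki67 or Top2a. The rule found 2980 of 21388 kept cells. The cells had been sorted as live CD45+Lin-CD11b+CD64+ cells and profiled by droplet single-cell sequencing of RNA 3′ ends. There were 4 libraries, each the only one of its group: WT on a high-fat diet (WT HFD), a conditional knockout of BLIMP1 on a high-fat diet (CKO HFD), WT on a normal diet and CKO on a normal diet. The promoter that drives the deletion, the deleted exons, the age and sex of the mice and the number of mice in a library are not stated in any source used here. Values below are given in the order WT HFD, CKO HFD, WT normal diet, CKO normal diet.

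LYVE1 is a hyaluronan receptor best known from lymphatic endothelium, and a class of tissue-resident macrophages that lies along blood vessels carries it too. FOLR2 is a folate receptor and CD163 a receptor for haemoglobin bound to haptoglobin, and both mark resident macrophages. Such cells are known for scavenger receptors, growth factors and low antigen presentation, while macrophages that gather around dying fat cells in obesity carry lipid-handling genes such as Trem2, Cd9 and Gpnmb.

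The series asks how loss of BLIMP1, a transcriptional repressor encoded by Prdm1, bears on fat macrophages under each diet. The members numbered 334, 1310, 509 and 827 cells, of 4650, 8731, 3705 and 4302 kept cells. Depth differed between libraries: the members' median was 13026 UMIs in WT HFD and 3640, 4186 and 3849 in the others, and their summed counts were 4849899, 6190182, 3081122 and 4372836 UMIs. Between 2 and 9 barcodes were shared by any pair of libraries, 35 in all. Prdm1 was measured at 14.4, 13.1, 24.7 and 25.2 UMIs per 1000000 UMIs of the cell set (CPM) in the members, so WT and CKO were alike within each diet. A 3′ tag can lie outside the deleted part of the gene, so this does not check the genotype labels. With 1 library per group, differences between groups have no replicate check and cannot be told apart from differences between library preparations. All intervals are 95% intervals that cover counting error only.

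The label was checked against genes the rule did not use. The defining genes of lymphatic endothelium, the other main source of Lyve1, were nearly absent: Prox1 was at 0, 0, 0.974 and 0.229 CPM and Flt4 had no UMI in any of the 4 libraries. The 11 endothelial markers in the files summed to 13.04 to 18.8 CPM in the members and to 24.7 to 32.8 CPM in the other kept cells. The 12 pan-macrophage markers summed to 12792 to 23518 CPM in the members, above the 9654 to 17647 CPM of the other kept cells of the same libraries. The 9 fibroblast markers summed to 160 CPM in WT HFD, of which Dcn made 89.7, and to 8.44 to 39.1 CPM in the other libraries. In the other kept cells the fibroblast sums were 438, 183.5, 32.1 and 28.95 CPM, so the members' sum was the higher in CKO normal diet. The part of fibroblast RNA in the results was not tested. The dendritic list summed to 1261.5, 1351, 882 and 1020 CPM, of which Mgl2, which macrophages carry too, made 1194.5, 1305, 658.5 and 828 CPM. In the other kept cells the dendritic sums were lower, 655, 857, 776 and 898.5 CPM. Taken gene by gene in the edgeR test against other cells described below, 7 of the 10 dendritic markers were lower in the members. Only 1, Mgl2, was higher. Markers of T, B, mast, erythroid, mesothelial and mural cells each summed to at most 14.3 CPM, of neutrophils to at most 23.1 CPM and of adipocytes to at most 53.3 CPM. The list of cavity macrophages summed to 285 and 486 CPM on HFD and 1719 and 1410.5 CPM on the normal diet, below the other kept cells of each library. Fn1, which is also on the list of monocyte markers, made 277 CPM of it in WT HFD and 1687 CPM in WT normal diet. The sum therefore says little of cavity macrophages. Position along vessels was not measured, so "perivascular" is the name of the marker pattern only.

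Free RNA could place a cell in the gate by chance. Among fibroblast-like cells, which should lack Lyve1, 1 of 60, 1 of 75, 0 of 2 and 1 of 7 passed. Among lymphoid-like cells, 0 of 14, 0 of 23, 0 of 19 and 1 of 15 passed. The median depth of the fibroblast-like cells was 14745, 3384, 4819 and 6782 UMIs, close to that of the members in the HFD libraries. In the 2 HFD libraries the fibroblast-like sets are largest, with shares of 1.67% (0.0422 to 8.94) and 1.33% (0.0338 to 7.21). In CKO HFD the interval lay below the members' share of all kept cells, 15.0%. In WT HFD it includes the members' share of 7.18%, so the set is too small to place the background below that share. The normal-diet sets are smaller still and cannot decide this either. A macrophage that already holds Folr2 or Cd163 needs only a stray Lyve1 UMI, which these pass counts do not measure. Lyve1 by itself was seen in 1, 2, 0 and 2 of the fibroblast-like cells and in 0, 2, 0 and 1 of the lymphoid-like cells. The background of Lyve1 among such macrophages was not tested.

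LYVE1-positive cells took a larger share of the kept cells in CKO than in WT under both diets, and a smaller share on HFD than on the normal diet in both genotypes. The shares were 7.18% (6.46 to 7.96), 15.0% (14.3 to 15.8), 13.7% (12.6 to 14.9) and 19.2% (18.1 to 20.4). The CKO share was 2.09 times the WT share on HFD (1.86 to 2.34) and 1.40 times on the normal diet (1.26 to 1.55). The HFD share was 0.523 times the normal-diet share in WT and 0.781 times in CKO. A deeper cell has more chances both to show Lyve1 and to show an excluding gene, so the shares were recomputed over cells thinned to 2000 UMIs. Cells with fewer UMIs were left out, 67, 1076, 675 and 820 of the kept cells. The shares, of 4583, 7655, 3030 and 3482 thinned cells, were then 4.10%, 11.1%, 10.1% and 16.03%, and the CKO to WT ratios 2.71 on HFD and 1.58 on the normal diet. No p-value is given, since each share comes from 1 library, and a share of sorted cells says nothing of the number of cells in the tissue.

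**Figure D1:**
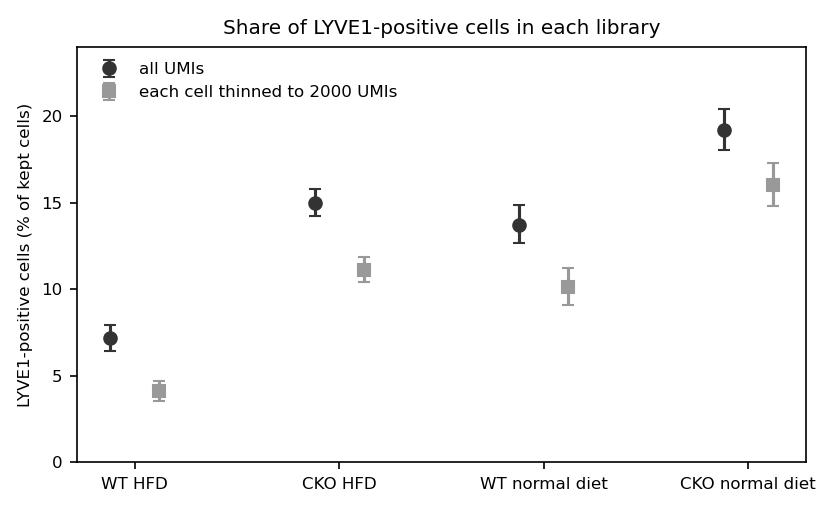
Share of LYVE1-positive cells (y axis, percent) in each of the 4 libraries (x axis), among all kept cells from all UMIs (circles) and among the kept cells that could be thinned to 2000 UMIs (squares), with 95% Clopper-Pearson intervals. WT HFD is lowest (7.18% and 4.10%) and CKO normal diet is highest (19.2% and 16.03%) by both measures.

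Most members carried both second markers: 65.3%, 68.4%, 65.03% and 70.9% had UMIs of Folr2 and of Cd163. Members with Cd163 and no Folr2 were few, 3, 71, 57 and 67 cells. The genes that chose the cells are given as a description. Lyve1 (chr7:110850607-110863239, minus strand, GRCm38) stood at 533, 558, 452 and 569 CPM, Folr2 (chr7:101839988-101857194, minus strand) at 865, 918, 581 and 707 CPM and Cd163 (chr6:124304656-124330527, plus strand) at 530.5, 590.5, 469 and 593 CPM. At the edge of the rule, 85, 542, 206 and 296 members had a single Lyve1 UMI, and 1037, 2520, 923 and 1025 cells met every other condition with no Lyve1 UMI.

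The excluding genes removed different cells in different libraries. Of the cells with Lyve1 and a second marker, Timd4, which marks long-lived resident macrophages, removed 4.14%, 5.003%, 18.3% and 20.6%. Mki67, a gene of dividing cells, removed 28.7% in WT HFD and 11.2%, 8.72% and 9.52% in the others. WT HFD is also the deepest library. At full depth 555, 1739, 711 and 1208 cells passed without the 4 excluding genes, and 334, 1310, 509 and 827 with them. After thinning to 2000 UMIs, 215, 968, 346 and 656 passed without them, and 188, 852, 307 and 558 with them. The part removed in WT HFD was thus much smaller after thinning, and near that in the other libraries. The removal by Mki67 alone was not counted in thinned cells. Without the excluding genes the members' share was 11.9%, 19.9%, 19.2% and 28.1%, and the CKO to WT ratio on HFD was 1.67.

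Each library's members were first set against all its other kept cells, with edgeR's quasi-likelihood test on summed counts and the library as a block. The gate genes were left out. Of 12229 genes tested, 2047 (16.7%) were higher and 2681 (21.9%) lower in the members at a false discovery rate (FDR) of 0.05. The p-values speak only of differences that repeat over these 4 libraries. The highest log2 fold changes belonged to Ednrb, the endothelin B receptor (2.64 ± 0.27, SE), Cd209f (2.55 ± 0.28), Fcna (2.48 ± 0.24), Cd209g (2.46 ± 0.27) and Ltc4s (2.32 ± 0.23). Rcn3, Rnase2a, Plekhg5, Pdgfc, Egfr, Cd209d and C4b followed, at 2.03 to 2.18. Rnase2a was abundant only on HFD, at 794 and 354 CPM in WT and CKO members against 96.4 and 111.5 CPM in other cells. On the normal diet it was near the floor, at 4.54 (14 UMIs) and 13.7 CPM against 2.57 and 3.03 CPM. The Cd209 genes, and Rnase2a with its relatives, are close copies of one another, so the division of reads among them is uncertain.

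Of the 12 genes named as lowest, Birc5, Pclaf, Ube2c, Stmn1, Cks1b, Lmnb1 and Smc2 serve cell division, and the rule had already removed cells with Mki67 or Top2a. Their place is therefore set by the rule. The others were Gpnmb (-2.32 ± 0.27), Plac8 (-2.20 ± 0.13), Itgal (-2.10 ± 0.18), Mmp12 (-2.05 ± 0.12) and Gngt2 (-1.94 ± 0.09). Monocyte markers were low as a list: 12 of 14 measured were lower and 0 higher, among them Ccr2, Ly6c2 and Plac8, against 21.9% of all genes lower.

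A closer comparison asks what accompanies Lyve1 itself. LYVE1-negative cells of the same library met every other condition of the rule, so the rule separates the sets by the Lyve1 UMI alone. Depth and RNA content were not matched. Median UMIs were 13026, 3640, 4186 and 3849 in LYVE1-positive cells and 13760, 3268.5, 4168 and 3425 in LYVE1-negative cells. The median share of ribosomal protein UMIs was 11.5%, 16.05%, 8.27% and 7.79% against 15.0%, 19.8%, 10.3% and 9.82%. Of 10771 genes tested by edgeR, 722 (6.7%) were higher and 1003 (9.31%) lower in the LYVE1-positive cells. Because a LYVE1-positive cell can miss its Lyve1 UMI in a shallow library, the comparator holds some such cells.

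The 8 genes that stood highest were Ednrb, Fcna, Cd209f, Ltc4s, Cd209g, Rcn3, C4b and Egfr. Ednrb was at 372, 242, 436 and 500.1 CPM in LYVE1-positive cells and at 20.8, 36.5, 116 and 165 CPM in LYVE1-negative cells. Every LYVE1-positive value lay above every LYVE1-negative value, with a log2 fold change of 2.48 ± 0.34 (edgeR FDR 0.0016). Fcna, which encodes the pattern-recognition protein ficolin A, was at 181, 151, 255 and 257 CPM against 13.7, 39.0, 59.3 and 73.0 CPM (2.29 ± 0.26). Ltc4s, the enzyme that makes leukotriene C4, was at 262, 394, 291 and 323 CPM against 24.7, 103, 86.1 and 115 CPM (2.04 ± 0.25). These sets do not overlap either.

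The sequences before the RefSeq starts of these genes are shown because the genes were high together. They are from RefSeq (GRCm38.p6), 5′ to 3′ on the gene's strand, and run from 250 bases before the RefSeq start up to the first base of any GENCODE M21 exon. The Ednrb stretch lies in an intron of a longer GENCODE transcript that starts further upstream. In capitals are matches on either strand to TGCTGA, a string of MAF motifs, and GAAAGTG, a string of BLIMP1 motifs.
Ednrb, chr14:103843702-103843951, minus strand: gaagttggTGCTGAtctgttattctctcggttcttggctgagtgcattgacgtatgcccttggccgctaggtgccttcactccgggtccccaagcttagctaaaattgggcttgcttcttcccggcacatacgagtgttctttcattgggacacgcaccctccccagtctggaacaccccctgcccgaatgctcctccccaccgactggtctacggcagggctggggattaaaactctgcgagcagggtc
Fcna, chr2:25628031-25628224, minus strand: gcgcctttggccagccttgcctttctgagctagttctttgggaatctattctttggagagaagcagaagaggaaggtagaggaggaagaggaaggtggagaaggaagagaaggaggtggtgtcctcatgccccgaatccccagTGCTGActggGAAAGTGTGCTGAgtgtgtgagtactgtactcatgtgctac
Cd209f, chr8:4105836-4106014, minus strand: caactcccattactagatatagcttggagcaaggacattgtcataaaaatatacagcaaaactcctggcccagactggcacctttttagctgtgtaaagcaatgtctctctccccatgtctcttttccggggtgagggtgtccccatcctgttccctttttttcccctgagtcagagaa
Ltc4s, chr11:50238617-50238782, minus strand: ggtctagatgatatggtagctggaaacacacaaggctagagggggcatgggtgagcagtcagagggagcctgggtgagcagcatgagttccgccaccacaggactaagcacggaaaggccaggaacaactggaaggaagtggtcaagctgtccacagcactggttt

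In all, 8 strings were searched on both strands over the 250 bases before the RefSeq start, in the 7 of the 8 highest genes that matched. They are the strings whose shares follow, and where a shorter string is part of a longer one, a match to the longer counts for both. TGCTGA was found in 2 of the 7 (Ednrb and Fcna) and in 16.1% of all 32851 promoters of that length, and the longer TGCTGAC in 1 of 7 and 3.81%. GAAAGTG was found in 1 of 7 (Fcna) and 4.01%, GTGAAAG in 0 of 7 and 3.57%, and GAAAG in 5 of 7 and 51.5%. GAGGAAGT was found in 0 of 7 and 2.44%, GGAAGT in 2 of 7 and 19.7%, and CACCC in 6 of 7 and 52.0%. These are matches of letters and no evidence of binding.

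**Figure D2:**
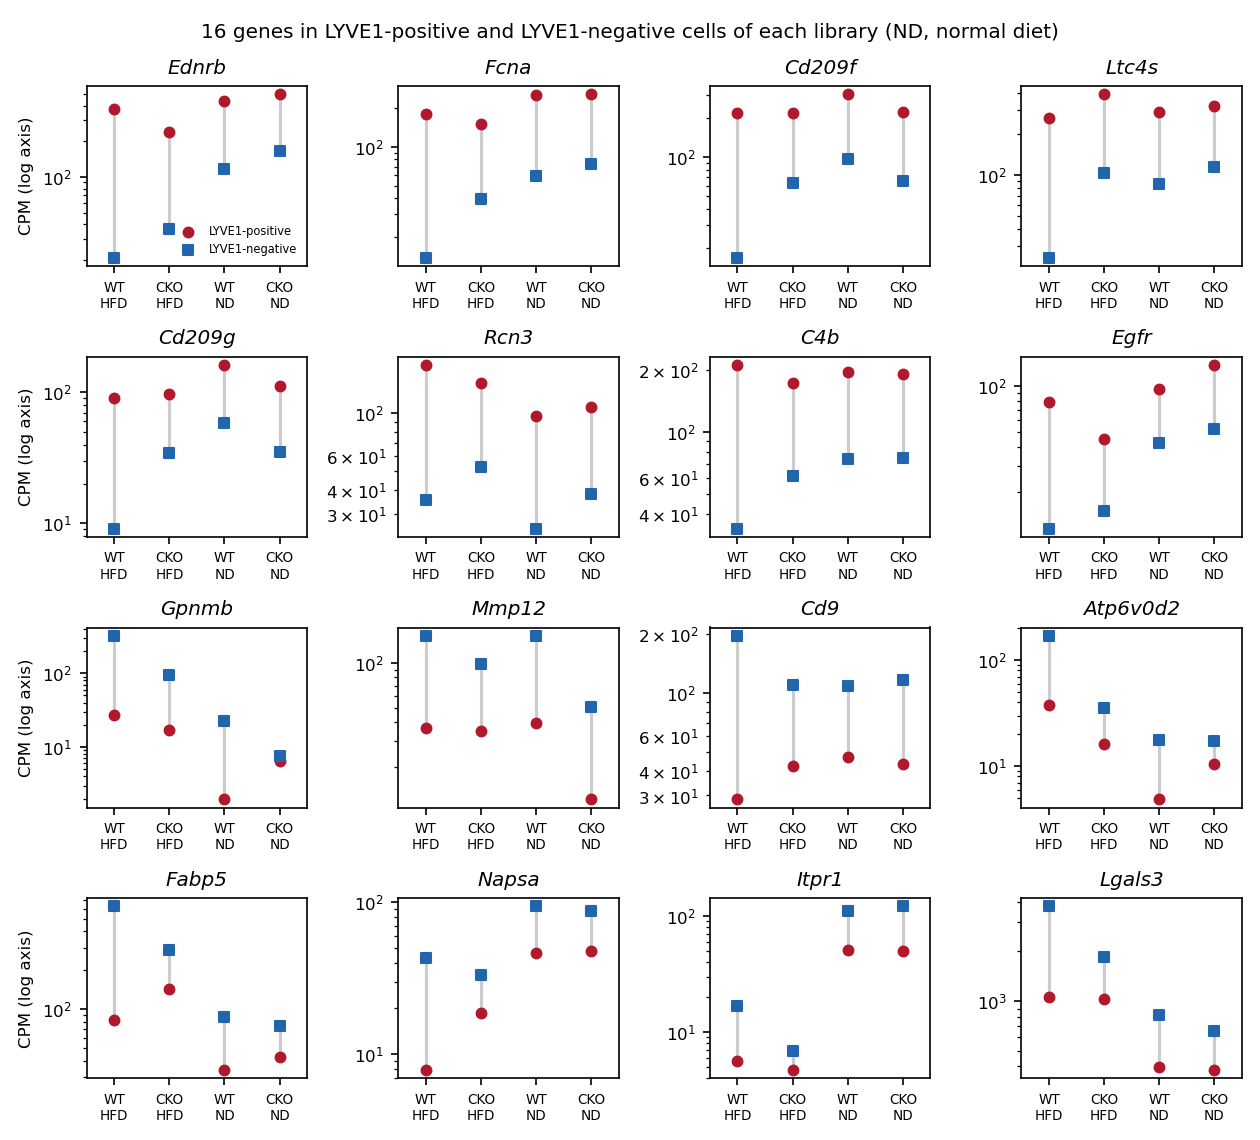
CPM (y axes, log scale) of the 8 highest and 8 lowest named genes in LYVE1-positive cells (red circles) and LYVE1-negative cells that met every other condition (blue squares) of each library (x axes). The red circle is above the blue square in all 4 libraries for Ednrb to Egfr and below it for Gpnmb to Lgals3, though Gpnmb is nearly level in CKO normal diet (6.40 and 7.51 CPM).

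The genes that stood lowest include the markers of lipid-associated macrophages. Gpnmb, a lysosomal glycoprotein, was at 27.2, 17.1, 1.95 and 6.40 CPM in LYVE1-positive cells and at 324, 93.4, 22.6 and 7.51 CPM in LYVE1-negative cells (-2.87 ± 0.34, edgeR FDR 0.00089). The gap was wide in 3 libraries and small in CKO normal diet. Cd9, a tetraspanin, was at 28.7, 42.5, 47.4 and 43.5 CPM against 196, 110, 109 and 116 CPM, and the values do not overlap (-1.77 ± 0.21). Mmp12, macrophage elastase, was lower (-1.95 ± 0.10), as was Fabp5, a fatty acid carrier (-1.64 ± 0.29). Lgals3, galectin-3, was at 1060, 1024, 399.5 and 380 CPM against 3753, 1846, 825 and 654 CPM (-1.21 ± 0.14). It was low against LYVE1-negative cells of the same library, and both sets were higher on HFD.

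Lists of genes were then read by their counts, beside the shares of all genes given above and a median over all genes of -0.01. Beyond the 4 most abundant members of a list, the members given with values were picked after their values were seen. Of 20 lipid-associated genes measured, 12 were lower and 0 higher, with a median log2 fold change of -0.90. Apoe, which encodes a lipid carrier, did not pass (0.16 ± 0.11). Of 25 genes of perivascular resident macrophages, 23 were higher and 0 lower, with a median of 1.01. Like the other lists, it was drawn up with earlier results of these data known, and none of them is independent evidence. It shares members with lists read below. Among these are Mrc1, Stab1 and Fcgrt with the scavenger receptors, Fcna, F13a1 and Pf4 with complement and coagulation, and Ednrb, Gas6 and Nrp1 with growth factors. Its 4 most abundant members were Pf4 (0.51 ± 0.08), Selenop (0.67 ± 0.07), F13a1 (1.303 ± 0.14) and Mrc1 (0.65 ± 0.08), and all 4 passed. Igf1 (0.21 ± 0.09) and Pla2g2d (0.05 ± 0.22) did not pass.

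Complement and coagulation genes were mostly higher, 10 of 18, with 1 lower (F7, coagulation factor VII). The higher ones include C1qa and C1qc, which start the classical pathway, C4b and F13a1, a clot-stabilising transglutaminase subunit. C1qb missed the threshold (0.19 ± 0.07, edgeR FDR 0.11).

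Of 19 scavenger and endocytic receptors, 9 were higher and 3 lower. Mrc1, the mannose receptor, was at 2455, 1549, 2378 and 2481 CPM against 1164, 1003, 1553 and 1647 CPM. Stab1, stabilin-1, was higher by 1.01 ± 0.20 and Fcgrt, the neonatal Fc receptor, by 0.90 ± 0.09. The lower ones were Cd68, Lrp1 and Scarb1. Among genes of apoptotic cell uptake, Gas6, Mertk, Pros1 and Abca1 were higher and Axl, Itgav, Itgb5 and Lrp1 lower, of 13. Mertk and Axl are receptors for the same ligand, GAS6. Mertk was at 152, 84.0, 149 and 162 CPM against 76.5, 52.5, 90.8 and 103 CPM, and Axl at 48.5, 79.0, 56.2 and 41.6 CPM against 113, 109, 80.7 and 60.5 CPM.

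Of 20 growth factors and vessel-facing signals, 9 were higher and 3 lower. Pdgfc, a platelet-derived growth factor, was higher by 1.42 ± 0.21, the chemokine Cxcl12 by 0.80 ± 0.12 and the semaphorin and VEGF co-receptor Nrp1 by 0.55 ± 0.09. Vegfa, the main vessel growth factor, was lower, at 3.09, 7.27, 14.3 and 7.09 CPM against 9.31, 10.1, 16.7 and 10.8 CPM (-0.73 ± 0.20, edgeR FDR 0.033). Of 15 iron and heme genes, Blvrb, Hmox1, Ncoa4 and Tfrc were higher and 0 lower.

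MHC class II genes were lower, 9 of 12 measured, and Cd86, a costimulatory ligand, was the 1 higher. H2-Ab1 was at 4418, 6024, 3399 and 2704 CPM against 5859, 7645, 4451 and 4107 CPM (-0.51 ± 0.05, edgeR FDR 0.00068). Each LYVE1-positive value lay below the value of the same library's LYVE1-negative cells, though the libraries overlap. Ciita, the activator of class II genes, was lower too (-0.54 ± 0.10).

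Chemokines divided: Ccl2, Ccl6, Ccl7, Ccl8 and Ccl24 were higher, and Ccl4, Ccl5, Ccl22, Cxcl2, Cxcl9, Cxcl10 and Cxcl16 lower, of 18. Of 16 inflammatory genes 5 were lower, Il1b among them (-1.15 ± 0.17), and Tlr4 was higher. Of 25 macrophage transcription factors 8 were higher, among them Klf2, Klf4, Maf and Zeb2, and 4 lower (Bhlhe40, Id2, Pparg and Spi1). Maf was at 945, 740.5, 1012 and 1250 CPM against 405, 453, 630.1 and 723 CPM, without overlap (0.77 ± 0.09). Of 14 alternative activation genes 5 were higher and 3 lower, and Retnla was at 17970, 21506, 12141 and 14101 CPM against 8677, 14474, 8823 and 12225 CPM (0.49 ± 0.11). Of 15 interferon-stimulated genes 1 was higher and 3 lower. Of 13 monocyte markers 0 were higher and 5 lower, Ccr2 among them. Immediate early and dissociation-response genes were higher in 15 of 18 against all other cells, but in 2 of 18 (Egr1 and Jun) against LYVE1-negative cells.

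**Figure D3:**
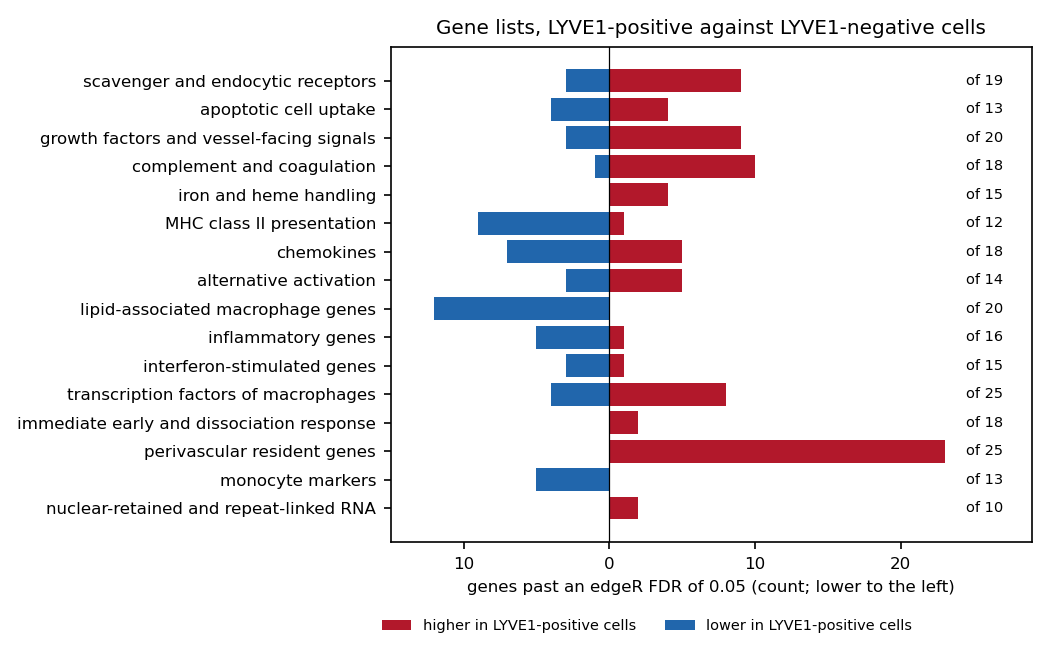
Number of genes (x axis) of each of 16 lists (y axis) that were higher (red, to the right) or lower (blue, to the left) in LYVE1-positive than in LYVE1-negative cells at an edgeR FDR of 0.05, with the number measured at the right. The perivascular resident list has 23 of 25 higher and the lipid-associated list 12 of 20 lower.

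LYVE1-positive cells that also held Timd4 had been kept out by the rule: 13, 76, 106 and 195 cells. Against them edgeR called few genes, 1 higher (0.0106%) and 15 lower (0.159%) of 9432, in a comparison chosen after seeing the data that the small sets limit. The 1 higher gene was Retnla, a resistin-like secreted protein (0.32 ± 0.07). Among the lower genes were Cxcl13, a B cell chemokine (-2.76 ± 0.27), Vsig4, a complement receptor (-2.31 ± 0.30), Cd209b (-1.22 ± 0.25) and Ccl8 (-0.71 ± 0.10). Cd209d, Cd209f and Cd209g were lower too, with log2 fold changes of -0.75, -0.76 and -0.82. These genes were picked from the 16 called after their values were seen. Ednrb (0.05 ± 0.10), Ltc4s (0.07 ± 0.10) and Mrc1 (0.10 ± 0.06) did not pass.

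Cells that passed the rule after thinning to 2000 UMIs were not uniform in MHC class II RNA. They numbered 188, 852, 307 and 558, of which 141, 790, 254 and 475 also passed at full depth. Their median of class II UMIs per cell was 45.5, 72, 38 and 29, and in WT HFD the tenth percentile was 3 and the ninetieth 84. Each library's cells of this thinned set were divided at that median, a split chosen after seeing the data and given with no test. Ednrb was at 840, 485, 984 and 929 CPM in the class II-low cells and at 287, 138, 493 and 406 CPM in the other. Fcna was at 394, 300, 490.5 and 516 CPM and at 186, 135, 268.5 and 225.5 CPM. Both genes were higher in the class II-low cells in 4 of 4 libraries. Of 23 perivascular resident genes with a mean of at least 50 CPM, 17 were higher in the class II-low cells in 4 of 4 libraries and 0 lower, where 18.3% of all 3196 such genes were higher and 7.29% lower. Of 14 lipid-associated genes 7 were higher and 2 lower. Trem2 was among those higher, at 186, 117, 66.5 and 51.2 against 95.7, 72.9, 36.9 and 38.2 CPM. Ccr2, the receptor that brings monocytes into tissue, was the 1 of 7 monocyte markers that was lower in 4 of 4 (0 were higher), at 516, 453, 342 and 244 CPM against 755, 563.5, 638 and 462 CPM. Cells of the thinned set with 3 or more Lyve1 UMIs had more Ednrb than those with 1 (727, 530, 1051 and 866 against 450, 207, 562.5 and 557 CPM) and less H2-Ab1 (3038, 4192, 2291 and 1548.5 against 4244, 6638, 3190.5 and 2778 CPM).

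**Figure D4:**
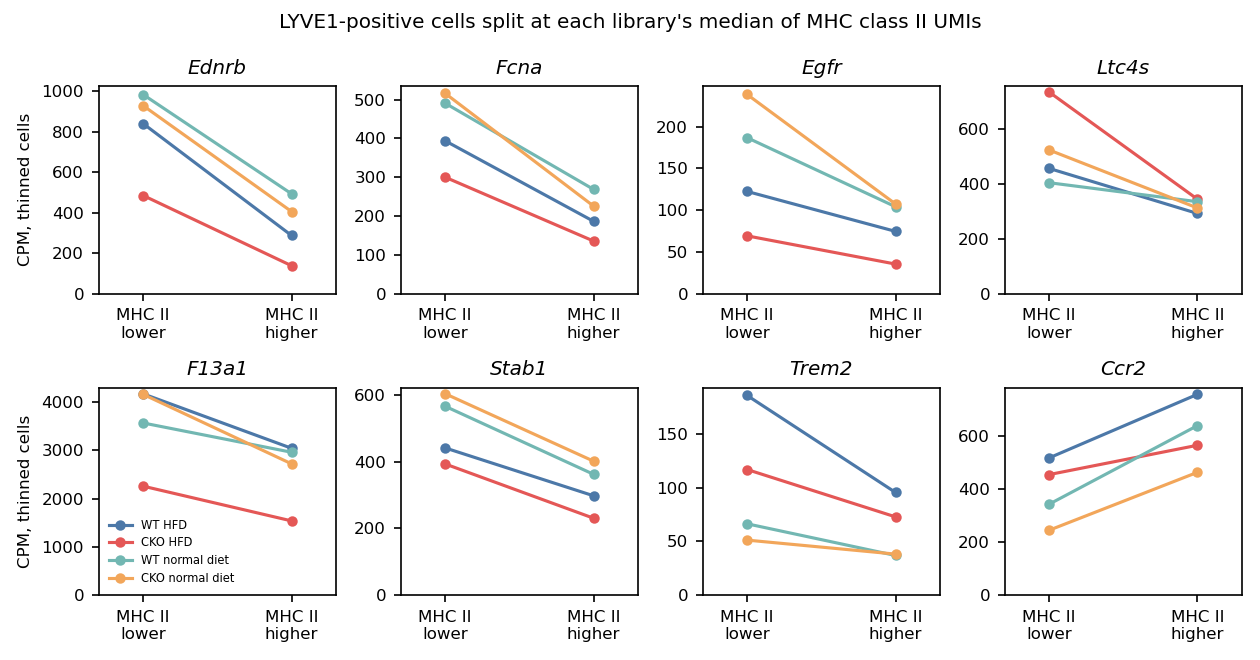
CPM after thinning (y axes) of 8 genes, chosen after their values were seen, in cells that passed the rule after thinning, at or below and above the median of MHC class II UMIs (x axes, low and high), 1 line for each library. Lines for Ednrb, Fcna, Egfr, Ltc4s, F13a1, Stab1 and Trem2 slope down from left to right in all 4 libraries, and those for Ccr2 slope up.

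The 4 comparisons between libraries share libraries with one another and have no test. A gene counts as past 2-fold by its ratio of CPM + 10, and genes entered where either library of the pair reached 20 CPM and 20 UMIs. For most genes named with their values, the ratio in the other kept cells of the same libraries is given too. Those cells include LYVE1-positive cells that the excluding genes removed, and may include cells that missed their Lyve1 UMI. With the other cells' log2 ratio subtracted, at most 19 genes in any comparison and direction were past 2-fold. Of the genes past 2-fold in the members, 62.5% to 85.5% were past 2-fold the same way in the other cells in 7 of the 8 counts. The exception is the lower side of CKO against WT on the normal diet, where 2 of 7 were.

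On HFD, 56 genes (0.938%) were past 2-fold higher and 151 (2.53%) past 2-fold lower in CKO than in WT members, of 5973. In the other kept cells 0.887% of the same genes were past 2-fold higher and 3.1% lower. The median log2 ratio over all genes was -0.14, and under TMM scaling, which brings it to 0.02, the counts were 130 higher and 81 lower. The highest ratio was that of Cxcl13, at 112 CPM (690 UMIs) in CKO and 1.86 CPM (9 UMIs) in WT, 60.1-fold (31.5 to 132). In other cells it was 36.6-fold higher. Lyz1, a lysozyme gene close in sequence to Lyz2, was at 236 against 39.4 CPM, 5.99-fold (5.15 to 7.01), and 2.06-fold in other cells. Ifitm6, Mt1, Cxcr4, Crip1, Lsm7 and S100a6 were 2.58- to 3.98-fold higher, and 2.08- to 4.399-fold in other cells. Of 8 monocyte markers measured 5 were past 2-fold higher (Ifitm3, Ifitm6, Lyz1, Plac8 and S100a6).

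The lowest ratios on HFD belonged to Cmss1 (393 against 4639 CPM), Cdk8, Il31ra, Lars2, Camk1d, Neat1, Gphn and AY036118. In other cells Cmss1 was at 321 against 3517 CPM. Of 10 nuclear-retained and repeat-linked RNAs 8 were past 2-fold lower, with a median log2 ratio of -2.56 in the members and -2.30 in other cells. The ratio also followed gene span: the median was 0.20 for the fifth of genes with the shortest span and -0.54 for the fifth with the longest. The part of library preparation in these values was not tested.

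As a list, the perivascular resident genes were near level between genotypes on HFD. Of 24 perivascular resident genes measured, 0 were past 2-fold higher and 1 (Nrp1) lower, with a median log2 ratio of -0.18, close to that of all genes. In the other kept cells the median of the same genes was 0.44. The median depth of those cells was 14630 UMIs in WT HFD and 3975 in CKO HFD. A LYVE1-positive cell can more easily miss its Lyve1 UMI, and so count as another cell, in the shallower library. The part of this in the values of the other cells was not tested. Single genes named as highest in the members were not all level on HFD, and those given here were picked after their values were seen. Rnase2a was at 354 CPM in CKO and 794 CPM in WT members, and at 111.5 and 96.4 CPM in other cells. Plekhg5 was at 60 CPM in CKO and 126 CPM in WT members, while Ltc4s was higher in CKO, as given above. Ccl24, an eosinophil chemokine singled out after its values were seen, was at 399 CPM in CKO and 332 CPM in WT members, and at 345 and 58.3 CPM in other cells. Of the lipid-associated genes, Fabp4 and Itgax were past 2-fold higher. Fabp4 was at 263 against 110 CPM, 2.38-fold, and 1.26-fold in other cells.

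On the normal diet CKO and WT members were more alike, with 3 genes (0.0477%) past 2-fold higher and 7 (0.111%) lower of 6290 and a median log2 ratio of 0.03. In the other kept cells 0.0318% were past 2-fold higher and 0.0318% lower. Hspa1b, a heat shock gene, was at 97.9 against 33.1 CPM, 2.96-fold (2.38 to 3.71), and 2.31-fold in other cells, and its near copy Hspa1a was 2.10-fold higher. Fkbp5, a glucocorticoid-induced chaperone partner, was at 74.3 against 26.6 CPM, 2.79-fold, and 1.87-fold in other cells. Ang and Rnase4, which share a locus, were 1.77- and 1.57-fold higher, and 1.59- and 1.57-fold in other cells.

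The lower side held Egr3, an early response transcription factor, at 42.3 against 161 CPM, 3.80-fold lower, against 46.9 and 86.7 CPM in other cells. Il10, an anti-inflammatory cytokine (chr1:131019845-131024974, plus strand), was at 30.6 CPM (134 UMIs) against 91.5 CPM (282 UMIs), a ratio of 0.335 (0.271 to 0.413), and 0.349 in other cells. On HFD Il10 was at 31.8 CPM in CKO and 55.0 CPM in WT members, and at 20.2 and 81.2 CPM in other cells. Mmp9, gelatinase B, was at 65.4 against 145 CPM, a ratio of 0.451, and 0.3915 in other cells, and Egr2, Ccl4, Ccl7, Ccl3 and Il1b were 1.65- to 1.965-fold lower. The other genes past 2-fold lower, outside the rule for named genes, were Saa3, Ccl5, Cxcl9 and Mmp12. Saa3, an acute-phase protein, was at 4.12 against 47.1 CPM in the members and at 50.8 against 50.3 CPM in other cells. None of the 25 perivascular resident genes was past 2-fold, and their median was 0.12.

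**Figure D5:**
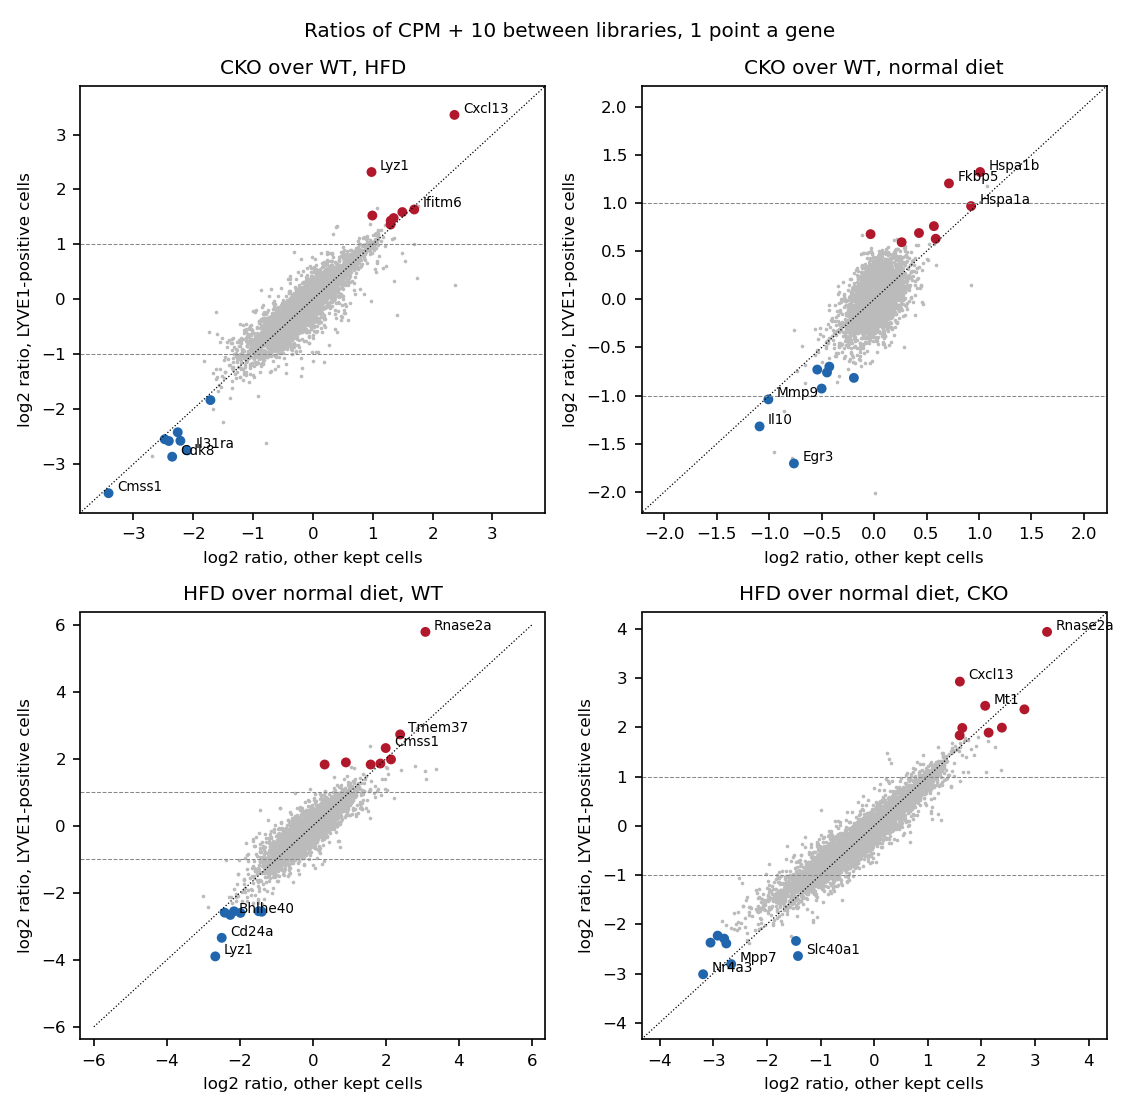
log2 ratios of CPM + 10 between libraries in the other kept cells (x axes) and in LYVE1-positive cells (y axes), 1 point a gene, in 4 comparisons. Red and blue are the 8 highest and 8 lowest named genes, dashed lines mark 2-fold and the dotted line equal ratios. Most points follow the dotted line, and Rnase2a in the WT panel and Lyz1 in the CKO over WT panel on HFD lie above it.

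Between diets in WT, 96 genes (1.5%) were past 2-fold higher on HFD and 279 (4.35%) lower, of 6407, with a median of -0.15. In the other kept cells 1.98% were higher and 4.93% lower. TMM scaling gave 185 higher and 177 lower. Rnase2a, an eosinophil-type ribonuclease, was at 794 CPM (3849 UMIs) on HFD and 4.54 CPM (14 UMIs) on the normal diet, 175-fold (104 to 320), and 37.6-fold in other cells. Tmem37, Cmss1, C1qb, Nupr1, Ms4a6d, Ccl8 and Ubb followed. C1qb was at 4529 against 1138.5 CPM, with a slightly larger ratio in other cells (3.98 and 4.46). Ccl8, a monocyte chemokine, was at 914 against 249.9 CPM in the members and at 139 against 109 CPM in other cells.

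Lower on HFD in WT were Lyz1 (39.4 against 726 CPM), Cd24a, Bhlhe40, Areg, Il6, Fn1, Nr4a3 and Il1b. The ratio of Lyz1 was 0.0542 in the members and 0.146 in other cells. Il1b was at 64.1 against 424.5 CPM, a ratio of 0.151, and 0.351 in other cells. Of 15 inflammatory genes 7 were past 2-fold lower and 0 higher. The lipid-associated list divided, with 6 of 19 higher (Atp6v0d2, Fabp4, Fabp5, Gpnmb, Lgals3 and Trem2) and 3 lower (Cd36, Itgax and Lpl). Its median was 0.56 in the members and 1.36 in the other cells. Of 25 perivascular resident genes, Igf1 was past 2-fold higher and Pla2g2d lower, with a median of -0.10 in the members and -0.76 in the others. Igf1, a growth factor, was at 988 against 335 CPM, 2.95-fold, and 4.34-fold in other cells.

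Between diets in CKO, 175 genes (2.75%) were past 2-fold higher on HFD and 736 (11.6%) lower, of 6362, with a median of -0.34. In the other kept cells 3.19% were higher and 15.9% lower. TMM scaling gave 462 higher and 256 lower, so the direction of the balance rests on the scaling. Rnase2a was again first, at 354 against 13.7 CPM, 25.8-fold (19.9 to 33.9), and 36.8-fold in other cells. Cxcl13 was at 112 against 5.95 CPM, 18.8-fold, and 5.20-fold in other cells. Mt1, Fabp4, Lgals1, Nupr1, Ccl2 and Ccl12 were 3.75- to 6.12-fold higher. Of 14 chemokines 8 were past 2-fold higher, among them Ccl2 at 2290 against 610 CPM. The same gene was at 1788 against 400.0 CPM in other cells.

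Lower on HFD in CKO were Nr4a3, Mpp7, Slc40a1, Chn2, Hdac9, Cd38, Dennd4a and Aff3. Slc40a1, the iron exporter ferroportin, was at 1.61 against 62.7 CPM, a ratio of 0.0258 (0.0769 in other cells), and in WT members at 3.09 on HFD and 55.5 CPM on the normal diet. Ednrb was at 242 on HFD and 500.1 CPM on the normal diet in CKO, a ratio of 0.483, and 0.248 in other cells. Ednrb, Nrp1 and Pla2g2d were past 2-fold lower among the 25 perivascular resident genes and Fxyd2 higher, with a median of -0.38, close to the -0.34 of all genes. Median log2 ratios ran from 0.30 for the fifth of genes with the shortest span to -0.88 for the longest.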

How the data were processed

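The deposited matrices hold raw counts of UMIs for each gene in each cell, written by Cell Ranger 7.0.0 per the file headers. The genome build is GRCm38 per the submitters' processing notes. Nothing in the labels or headers says if the counting took in introns. Cells were kept with at least 500 UMIs, 300 genes and at most 10% mitochondrial UMIs. Scrublet scores (scanpy 1.11.5) were used only in an alternative that removed the highest-scoring cells at the usual droplet doublet rate (173, 610, 110 and 148 cells). Counts were summed per library and cell set. Sets within libraries were compared by edgeR 4.0.16 (quasi-likelihood test, library as block, Benjamini-Hochberg adjustment), with DESeq2 1.42.0 as an alternative. On simulated data at these depths the fit recovered 90.7% of 2-fold changes against other cells and 94.8% against LYVE1-negative cells. The simulation gave all genes the same dispersion and each changed gene the same change in every library. Its recovery does not extend to changes that vary between libraries. Ratios between libraries carry exact conditional binomial intervals, levels exact Poisson and shares Clopper-Pearson intervals. Positions come from GENCODE M21.

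Named genes were the 12 highest and 12 lowest against other cells, the 8 highest and 8 lowest against LYVE1-negative cells and in each pair of libraries, with at least 50 CPM in the higher set, the same sign in all 4 libraries and an FDR under 0.05 for the tests, and at least 50 UMIs for the pairs. Gate, mitochondrial, ribosomal, haemoglobin, immunoglobulin, T cell receptor, predicted and Y-linked genes, Xist and Tsix were left out of them. So were the listed markers of fibroblasts, adipocytes, mesothelium, erythroid, B and T or innate lymphoid cells. Markers of the other cell types could be named. The 4 most abundant members of each list could be named too. Members and lists were chosen with earlier results of these data known. The fibroblast-like (at least 5 UMIs over 5 genes) and lymphoid-like sets (at least 4 UMIs over 7 genes), the class II split and the Lyve1 tiers were set after the data were seen.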

Additional observations from a re-analysis of the deposited data

Results flagged for a closer look

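Among the named genes and the members of the gene lists, some had ratios of at least 1.5-fold in opposite directions in LYVE1-positive cells under the same contrast. Other genes were not searched, so no share over all genes is given. Each contrast rests on 1 library per group, so the differences were not tested, and both families below use the same 4 libraries. In the other kept cells, 21 of the 22 pairs of ratios lay on the same sides of 1. That is a looser rule than 1.5-fold, and some of those ratios were near 1, such as Lyz1 (0.970) and Egr2 (0.949). At 1.5-fold both ways, other cells matched only for Cdk8, Cmss1, Lars2 and Lsm7, all between diets. The exception to the same sides of 1 is Kcnq1ot1 for CKO against WT (0.257 on HFD and 0.933 on the normal diet in other cells).

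The ratio of CKO to WT was above 1 on HFD and below 1 on the normal diet for Adam8 (1.75 and 0.625), Ccl2 (1.64 and 0.63), Ccl4 (1.61 and 0.541), Gngt2 (2.1 and 0.596), Id2 (1.61 and 0.628), Il1b (2.72 and 0.607), Itgax (3.12 and 0.508) and Lyz1 (5.99 and 0.625), where the first value is HFD. It was below 1 on HFD and above 1 on the normal diet for Kcnq1ot1 (0.331 and 1.69) and Srpk2 (0.644 and 1.67). Itgax encodes integrin CD11c, Il1b an inflammatory cytokine and Ccl2 the main monocyte chemokine.

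The ratio of HFD to normal diet was above 1 in WT and below 1 in CKO for Camk1d (1.63 and 0.241), Cdk8 (2.35 and 0.304), Cmss1 (5.04 and 0.451), Gm42418 (1.65 and 0.192), Kcnq1ot1 (2.54 and 0.497), Lars2 (2.22 and 0.294) and Neat1 (1.52 and 0.241), where the first value is WT. It was below 1 in WT and above 1 in CKO for Crip1 (0.576 and 1.73), Egr2 (0.625 and 1.66), Gngt2 (0.629 and 2.21), Itgax (0.271 and 1.66) and Lsm7 (0.621 and 1.81). Egr2 is an early response transcription factor.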

How the results depend on the processing

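Shares: no alternative turned a ratio's direction. CKO over WT on HFD was 2.71 thinned, 1.64 with 2 or more Lyve1 UMIs, 1.67 without the excluding genes, 2.70 thinned without them and 2.65 thinned among C1q-positive cells. On the normal diet it was 1.58 thinned and 1.65 thinned without the excluding genes. HFD over normal diet in WT was 0.405 thinned, 0.655 with 2 or more Lyve1 UMIs, 0.622 without the excluding genes, 0.378 among C1q-positive cells, 0.411 thinned without the excluding genes and 0.296 thinned among C1q-positive cells. In CKO these were 0.694, 0.713, 0.709, 0.634, 0.671 and 0.540.

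Tests: against other cells edgeR called 248 higher and 329 lower without the library block, and 1214 and 1603 after thinning. Against LYVE1-negative cells the counts were 0 and 0 without the block (606 at an unadjusted p under 0.05), 461 and 597 after thinning, 479 higher with DESeq2 and 1562 lower with no filter. Leaving out 1 library gave 1613 to 1822 higher and 2013 to 2236 lower against other cells, and 501 to 563 higher and 610 to 831 lower against LYVE1-negative cells. Without WT normal diet 614 were lower and without CKO normal diet 610. Of the named genes, 21 results lost the threshold, all without the block, and 0 reversed.

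Ratios past 2-fold, higher then lower. CKO over WT on HFD: 130 and 81 (TMM), 89 and 306 (pseudocount 1), 130 higher thinned, 5 and 13 with the other cells' ratio subtracted. On the normal diet: 5 and 11 (pseudocount 1), 19 and 15 thinned, 0 and 1 subtracted, 11 lower with 2 or more Lyve1 UMIs. HFD over normal diet in WT: 185 and 177 (TMM), 197 and 471 (pseudocount 1), 148 and 447 thinned, 19 and 19 subtracted. In CKO: 462 and 256 (TMM), 1184 lower (pseudocount 1), 268 higher thinned, 10 and 3 subtracted. With the other cells' ratio subtracted, which by construction leaves only the difference, log2 values turned for Ifitm6 (-0.058, CKO over WT on HFD), C1qb (-0.16, diet in WT) and, for diet in CKO, Fabp4 (-0.43), Lgals1 (-0.39), Ccl2 (-0.24), Nr4a3 (0.17), Chn2 (0.37), Hdac9 (0.68), Dennd4a (0.50) and Aff3 (0.69). For the other changed values the cause was not tested. The tests within libraries are paired by the library block. Between libraries, no fit with diet or genotype as a block was run.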
